A study of Mus musculus with 9 samples.

Results

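The 10 genes described here are *Tgfb1*, *Tgfb2*, *Tgfb3*, *Mstn*, *Fst*, *Tgfbr1*, *Tgfbr2*, *Tgfbr3*, *Acvr2a* and *Acvr2b*, taken by name from a table of 25655 mouse genes, and all 10 were found in it. They encode the 3 TGF-beta ligands, myostatin, the antagonist follistatin and 5 receptors. The RNA came from MuSCs (muscle stem cells), in 3 groups of 3 libraries. The groups MyoD-tdTomato low and MyoD-tdTomato high, called low and high cells below, were taken from the hindlimb muscle of MyoD-KI mice aged 10 to 16 weeks, which carry P2A-tdTomato at the stop codon of *MyoD* on a C57BL/6 background and which the study describes as heterozygous. They were enriched on magnetic beads, grown for 5 days in medium rich in serum and then parted by FACS on tdTomato fluorescence, so the level of the MyoD reporter itself defines both groups. QSCs were MuSCs isolated from the leg muscle of male Pax7-YFP mice (Pax7 YFP/YFP) aged 15 to 16 weeks and were never cultured. Genotype, age, culture and isolation therefore differ together between QSCs and both cultured groups and cannot be told apart. Sex may differ too, since the study used MyoD-KI mice of both sexes unless stated and gives no sex for these cultures. The study calls the libraries of a group technical replicates, so every p-value below measures only the spread between libraries.

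TGF-beta is secreted in a latent form bound to matrix. When freed, it binds the type II receptor Tgfbr2, which recruits and phosphorylates the type I receptor Tgfbr1, and the complex passes the signal on through Smad2 and Smad3. Myostatin and the activins use the type II receptors Acvr2a and Acvr2b in the same way, and follistatin binds both ligands outside the cell and keeps them from their receptors. In muscle, TGF-beta is known to hold back myoblast differentiation and fusion, and myostatin is known as a brake on muscle mass that is made by muscle itself.

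Levels are given as TPM, which corrects for gene length and so allows genes to be compared, or as CPM with TMM factors, the scale of the statistical test. The test was edgeR's quasi-likelihood test on counts with Benjamini-Hochberg adjustment over all 12614 genes that had at least 1 count in every library. A gene was called at an adjusted p under 0.01 together with a fold change over 1.5, and it rose or fell only where it was called. Of the 10 genes 9 could be tested, and *Mstn*, with a count of 0 in 2 libraries, could not.

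Total counts ranged from 24471782 to 26782872 in the cultured libraries and from 7514633 to 18077031 in QSCs. QSCs library 2 stood apart. It was the shallowest, and 1602 genes of chemosensory receptors, which are not known as genes of muscle, took 3001 CPM in it, against 562 and 771 CPM in the other QSCs and 20.4 to 29.6 CPM in cultured libraries. If such reads fall on every gene alike by length, they would make up at most 0.108% of the TPM of any tested member in cultured cells and up to 22.9% in QSCs, where that largest share is *Fst* in library 2. Subtracting them changed the call of no tested member. Mitochondrial genes took 3.92% to 4.95% of the counts in cultured libraries, against 11.4% to 19.0% in QSCs, highest in library 3, and the part of this in the comparisons with QSCs was not tested. The 12 markers of MuSCs summed to 1714 to 2063 CPM in low cells and 1862 to 2085 CPM in high cells, against 6031 to 7423 CPM in QSCs. Of the 11 tested, 7 fell and 0 rose in low cells, and 7 fell and 1 rose in high cells. *Itga7* (428.9 CPM in low cells, 579.4 in high cells, 354.5 in QSCs) and *Itgb1* (558.5, 632.0 and 497.2 CPM) had higher means after culture. *Myf5* had 144.6, 100.4 and 130.5 CPM in the same order. *Calcr* had 0.34 ± 0.229 CPM in low cells, 0.0989 ± 0.0355 CPM in high cells and 184 ± 23.3 CPM in QSCs, and *Cd34* had 2.18 ± 0.288, 1.01 ± 0.165 and 334 ± 76.0 CPM, so these were nearly absent after culture. *Pax7* had 146 ± 4.9 CPM in low cells, 80.7 ± 13.8 CPM in high cells and 315 ± 45.8 CPM in QSCs (SD, n = 3 each), and *Myog*, a marker of commitment, had 303 ± 151, 2280 ± 709 and 73.3 ± 14.3 CPM in the same order.

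The largest differences among the members lay between cultured cells and QSCs. On counts both cultured groups held more *Tgfb1* than QSCs, and less of all 3 TGF-beta receptors and of *Acvr2b*. *Tgfbr3* fell furthest, by 65.5 times in low cells and 146 times in high cells. *Fst* rose in high cells, by 6.92 times. Between low and high cells no tested member was called, although *Fst*, *Tgfb3* and *Tgfbr3* came closest.

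**Figure D1:**
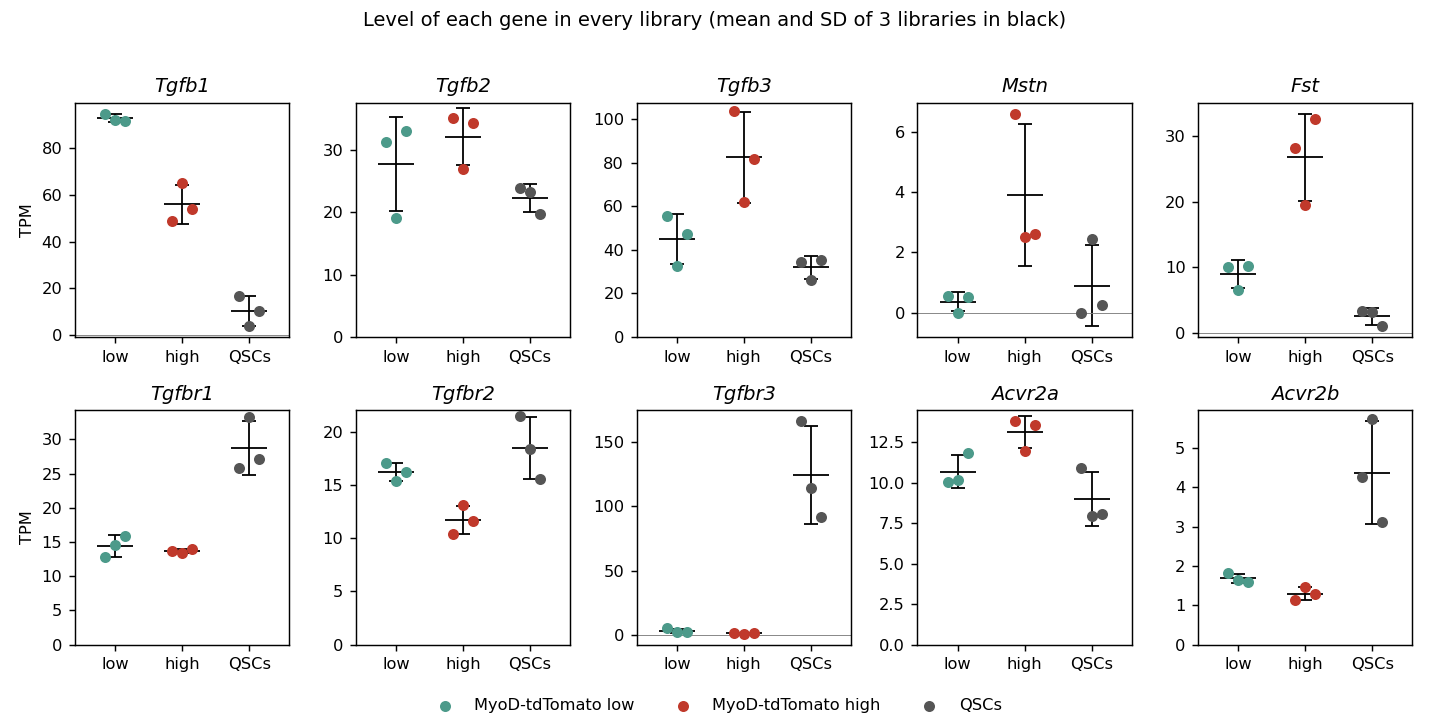
TPM (vertical axes, each gene on its own scale) of the 10 genes in every library of MyoD-tdTomato low cells, MyoD-tdTomato high cells and QSCs (horizontal axes). Points are libraries, and the black lines are the mean and SD of 3 libraries. *Tgfb1* is highest in low cells (91.6 to 94.6 TPM), *Tgfb3* and *Fst* are highest in high cells, and *Tgfbr3* is highest in QSCs (92.1 to 166 TPM).

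*Tgfb1* (ENSMUSG00000002603, chromosome 7, 25386427 to 25404502, plus strand, GRCm39) encodes the TGF-beta that is made most widely. It was read 2585, 2370 and 2488 times in low cells and 1315, 1847 and 1407 times in high cells, against 383, 38 and 239 times in QSCs. On the length-corrected scale this gave 94.6, 92.0 and 91.6 TPM in low cells, 48.7, 65.1 and 53.8 TPM in high cells, and 16.6, 3.86 and 10.6 TPM in QSCs. The 3 groups did not overlap, and within QSCs library 2 held the least. In low cells *Tgfb1* rose against QSCs with a log2 fold change and SE of 2.30 ± 0.38 (adjusted p = 0.00034, edgeR), or 4.91 times. In high cells it rose by 1.69 ± 0.37 (adjusted p = 0.00219, edgeR), or 3.24 times. Of the *Tgfb1* TPM in QSCs library 2, 19.0% is what the chemosensory background would give, against 0.745% and 1.28% in libraries 1 and 3. Both calls held when any single library was left out. *Tgfb1* is also made by macrophages and endothelial cells. The summed level of 12 macrophage and myeloid markers was 30.7 to 54.6 CPM in low cells and 7.70 to 15.4 CPM in high cells, against 114 to 176 CPM in QSCs. Of these markers 10 could be tested, of which 4 fell against QSCs in low cells and 9 in high cells, 3 were higher in low than in high cells, and *Ptprc* was at 0 in all high libraries. The 12 endothelial markers, given below, were likewise lower in cultured cells than in QSCs and higher in low than in high cells. *Tgfb1* was thus higher than in QSCs where both sums were lower, and between low and high cells it was higher where both sums were higher. The part of these cells in its levels was not tested.

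*Tgfb3* (ENSMUSG00000021253, chromosome 12, 86103519 to 86125815, minus strand, GRCm39), the third ligand, had another order. It stood at 55.4, 32.4 and 47.3 TPM in low cells, 104, 62.1 and 81.9 TPM in high cells, and 34.4, 26.1 and 35.4 TPM in QSCs. In TPM every high library was above every other library, while low cells and QSCs overlapped. In CPM high library 2 (85.8) lay below QSCs library 3 (92.8). Neither comparison with QSCs was called: the log2 fold change was -0.33 ± 0.27 in low cells (adjusted p = 0.314, edgeR) and 0.68 ± 0.27 in high cells (adjusted p = 0.0465, edgeR). On log2(TPM + 1) with limma the value in high cells was 1.32 and was called (adjusted p = 0.000323).

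*Tgfb2* (ENSMUSG00000039239, chromosome 1, 186354989 to 186438186, minus strand, GRCm39) was the most even of the ligands. It had 31.2, 19.1 and 33.0 TPM in low cells, 35.1, 26.9 and 34.4 TPM in high cells, and 23.9, 23.3 and 19.7 TPM in QSCs. The log2 fold change against QSCs was -0.47 ± 0.21 in low cells (adjusted p = 0.0665, edgeR) and -0.13 ± 0.21 in high cells (adjusted p = 0.601, edgeR).

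The make-up of the ligand RNA differed between the groups. The summed TPM of the 3 ligands was 144 to 181 in low cells and 154 to 188 in high cells, against 53.2 to 74.9 in QSCs. Low and high cells overlapped in this sum, and on TPM the middle of all genes was also higher in cultured cells, by the values given below. *Tgfb1* gave 52.2%, 64.1% and 53.3% of it in low cells, 25.99%, 42.2% and 31.6% in high cells, and 22.1%, 7.24% and 16.1% in QSCs. *Tgfb3* gave 22.6% to 30.6% in low cells, 40.3% to 55.3% in high cells and 46.0% to 54.0% in QSCs. The ratio of *Tgfb1* to *Tgfb3* TPM was 1.71 to 2.84 in low cells, 0.47 to 1.05 in high cells and 0.148 to 0.481 in QSCs. Low cells were thus the group in which *Tgfb1* was the main ligand RNA in every library, and the ratios of high cells and QSCs overlapped.

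**Figure D2:**
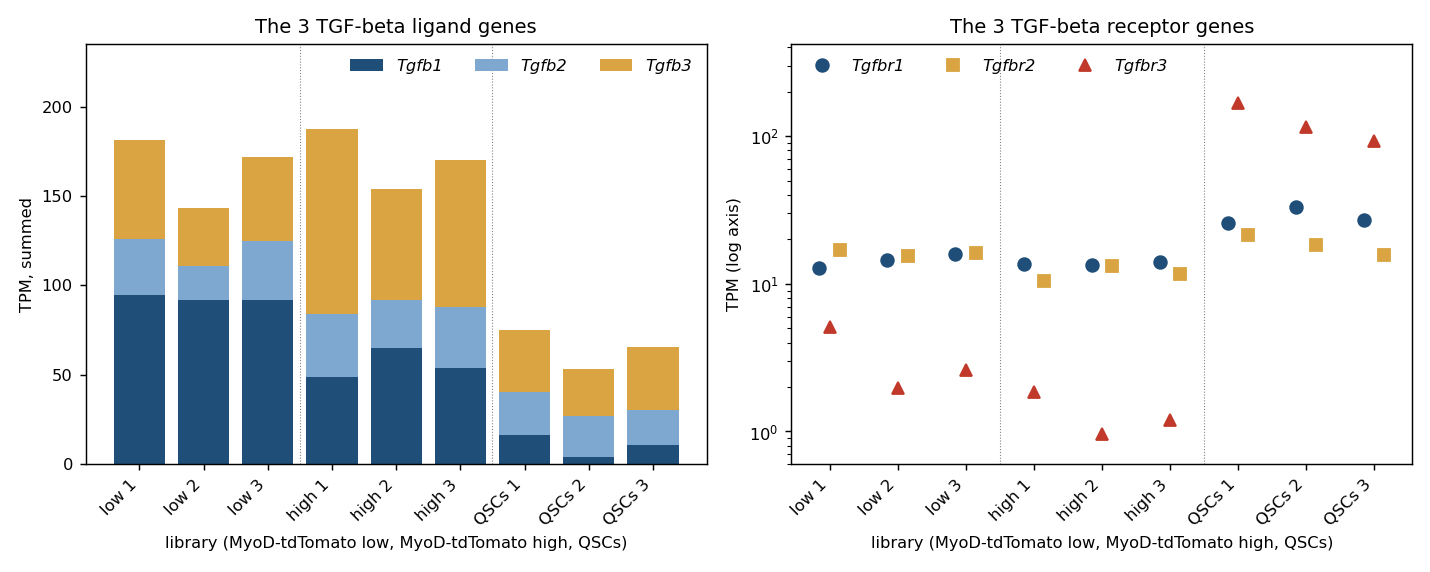
Left, the TPM of *Tgfb1*, *Tgfb2* and *Tgfb3* stacked for each of the 9 libraries (vertical axis, summed TPM). Right, the TPM of *Tgfbr1*, *Tgfbr2* and *Tgfbr3* in the same libraries on a log axis. The stacks are 144 to 188 TPM high in cultured libraries and 53.2 to 74.9 TPM in QSCs, and *Tgfbr3* lies below *Tgfbr2* in all cultured libraries and above it in all QSCs.

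*Mstn* (ENSMUSG00000026100, chromosome 1, 53100799 to 53107238, plus strand, GRCm39), which encodes myostatin, was scarce in every group. It had 17, 0 and 16 counts in low cells, 199, 79 and 76 counts in high cells, and 0, 27 and 6 counts in QSCs. In TPM these were 0.559, 0 and 0.529 in low cells, 6.62, 2.5 and 2.61 in high cells, and 0, 2.46 and 0.238 in QSCs. In TPM every high library was above every low and every QSCs library, but in CPM QSCs library 2 (3.94) lay above high libraries 2 and 3 (2.76 and 2.99), so high cells and QSCs were not clearly parted. The count of 0 allows a level of up to 3 counts, or 0.123 CPM of the total in low library 2 and 0.166 CPM in QSCs library 1, counting error only. Of the QSCs levels above 0, the chemosensory background would give 29.8% in library 2 and 56.7% in library 3. With no filter on low counts the log2 fold change was -1.66 ± 1.39 in low cells against QSCs (adjusted p = 0.311, edgeR), 1.88 ± 1.34 in high cells against QSCs (adjusted p = 0.241) and -3.54 ± 1.41 in low against high cells (adjusted p = 0.242). None of the 3 was called, and the errors are wide.

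The stretches of DNA before *Mstn* and *Tgfb1* are shown because these ligands had their highest TPM in opposite cultured groups, *Mstn* in cells sorted for high MyoD reporter and *Tgfb1* in cells sorted for low. In edgeR fits of all 9 libraries neither was called between low and high cells. The adjusted p was 0.242 for *Mstn* with no filter and 0.357 for *Tgfb1* in the fit reported. MyoD is known to bind E-boxes, which have the letters CANNTG, where N is any base. The 250 bases before the start of each gene are given 5′ to 3′ from RefSeq on build GRCm38.p6, an older build than that of the counts, with each E-box in capitals.
*Mstn*, chr1:53061390-53061639, plus strand: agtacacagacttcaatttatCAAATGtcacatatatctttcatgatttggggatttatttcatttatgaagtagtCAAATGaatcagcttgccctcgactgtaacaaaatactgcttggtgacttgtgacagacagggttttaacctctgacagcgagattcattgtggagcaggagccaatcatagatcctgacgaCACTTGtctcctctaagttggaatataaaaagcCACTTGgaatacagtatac
*Tgfb1*, chr7:25686752-25687001, plus strand: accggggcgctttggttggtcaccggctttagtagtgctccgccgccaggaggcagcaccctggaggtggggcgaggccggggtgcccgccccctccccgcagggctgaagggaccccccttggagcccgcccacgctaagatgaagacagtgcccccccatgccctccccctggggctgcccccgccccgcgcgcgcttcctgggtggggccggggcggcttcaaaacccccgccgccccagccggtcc
The window of *Mstn* held 4 E-boxes, which begin 229, 174, 52 and 19 bases before the start and spell CAAATG in the first pair and CACTTG in the second. It also held the letters TATAAA 29 bases before the start, which overlap no E-box. The window of *Tgfb1* held neither. RefSeq entries were found for 7 of the 10 genes, in 8 windows, and *Tgfb3*, *Tgfbr3* and *Fst* were not among them. Of those 8 windows 5 had no E-box, and besides *Mstn* only *Tgfb2* (CACGTG, 51 bases before the start) and the second of the 2 entries of *Tgfbr1* (CATTTG, 238 bases before) had any. Among 32851 windows of the same length, 66.2% held at least 1 E-box and 3.84% at least 4, and 12.4% held TATAAA on either strand. An E-box in such a window is therefore common, and 4 of them are less so. *Mstn* had the most E-boxes of the 8 windows read, so its place among all windows is that of a picked extreme. These are matches of letters, and binding was not measured.

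*Fst* (ENSMUSG00000021765, chromosome 13, 114588826 to 114595487, minus strand, GRCm39) encodes follistatin, the antagonist of myostatin and activin. Its counts were 376, 229 and 379 in low cells, 1039, 752 and 1161 in high cells, and 108, 43 and 32 in QSCs. In TPM it stood at 10.1, 6.53 and 10.2 in low cells, 28.3, 19.5 and 32.6 in high cells, and 3.43, 3.20 and 1.04 in QSCs. The 3 groups did not overlap. High cells rose against QSCs by a log2 fold change of 2.79 ± 0.38 (adjusted p = 7.85e-05, edgeR). Low cells missed the threshold, with 1.08 ± 0.37, or 2.11 times (adjusted p = 0.0242, edgeR). On log2(TPM + 1) with limma, with DESeq2 and with no filter on low counts low cells passed it (1.54, 1.10 and 1.24, adjusted p = 0.00103, 0.00587 and 0.00996). The ratio of *Fst* to *Acvr2a* TPM, an antagonist against a receptor of the ligands that it binds, was 0.644 to 1.01 in low cells, 1.63 to 2.40 in high cells and 0.129 to 0.404 in QSCs.

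Of the 5 receptor genes, 4 fell against QSCs in both cultured groups and *Acvr2a* was not called. *Tgfbr3* (ENSMUSG00000029287, chromosome 5, 107254436 to 107437495, minus strand, GRCm39) encodes betaglycan, a co-receptor that presents TGF-beta, above all the product of *Tgfb2*, to Tgfbr2 and also binds inhibin. It had 364, 131 and 184 counts in low cells and 129, 71 and 81 counts in high cells, against 9985, 2934 and 5416 counts in QSCs. In TPM this was 5.13, 1.96 and 2.61 in low cells, 1.84, 0.963 and 1.19 in high cells, and 166, 115 and 92.1 in QSCs. *Tgfbr3* fell by 6.03 ± 0.42 on the log2 scale in low cells (adjusted p = 6.95e-07, edgeR) and fell by 7.19 ± 0.45 in high cells (adjusted p = 2.89e-07). Among the 10 genes it had the highest TPM in QSCs, and in high cells its range overlapped that of *Acvr2b*, the lowest of the 10.

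*Tgfbr3* is also expressed by fibroblasts and endothelial cells. The 12 fibroblast markers summed to 963 to 1451 CPM in low cells and 804 to 938 CPM in high cells, against 3082 to 3769 CPM in QSCs, and of the 6 that could be tested 4 fell in low cells and 6 in high cells. The sum hides unlike genes. The highest in cultured cells were *Gsn* (541 CPM in low cells, 455 in high cells, 1481 in QSCs) and *Col3a1* (549, 372 and 661 CPM). *Dcn* (0.503, 0.157 and 359 CPM) and *Dpt* (0.163, 0.0233 and 373 CPM) were nearly absent after culture. Of 12 endothelial markers, 10 could be tested and all 10 fell in both cultured groups, with sums of 61.0 to 75.4 CPM in low cells and 24.5 to 27.2 CPM in high cells, against 559 to 1043 CPM in QSCs. No fibroblast marker was at 0 in all libraries of a group, and of the endothelial markers *Cldn5* was at 0 in all high libraries. Within QSCs *Dcn*, a fibroblast marker, had 359 ± 36.7 CPM and *Pecam1*, an endothelial one, 75.1 ± 43.7 CPM, beside 519 ± 140 CPM of *Tgfbr3* (SD, n = 3). The part of these cells in the result was not tested, and fewer cells of a type cannot be told apart from less RNA per cell in such bulk samples.

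*Tgfbr1* (ENSMUSG00000007613, chromosome 4, 47353222 to 47414931, plus strand, GRCm39), the type I receptor kinase also called ALK5, had 12.8, 14.5 and 15.9 TPM in low cells, 13.6, 13.4 and 14.0 TPM in high cells, and 25.9, 33.2 and 27.1 TPM in QSCs. It fell by 1.79 ± 0.13 on the log2 scale in low cells (adjusted p = 6.45e-07, edgeR) and fell by 1.73 ± 0.12 in high cells (adjusted p = 7.51e-07). The 2 cultured groups overlapped and both lay below all QSCs.

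*Tgfbr2* (ENSMUSG00000032440, chromosome 9, 115913361 to 116004428, minus strand, GRCm39), the type II receptor that binds the ligand first, had 17.0, 15.4 and 16.2 TPM in low cells, 10.4, 13.1 and 11.6 TPM in high cells, and 21.5, 18.4 and 15.6 TPM in QSCs. It fell by 0.98 ± 0.13 on the log2 scale in low cells (adjusted p = 7.56e-05, edgeR) and fell by 1.32 ± 0.13 in high cells (adjusted p = 8.44e-06). In TPM the low cells overlapped QSCs, and on log2(TPM + 1) with limma the fall in low cells was not called (-0.17, adjusted p = 0.359). The call for low cells thus rests on the counts.

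The receptor RNAs of QSCs were dominated by betaglycan. *Tgfbr3* made up 6.16% to 14.7% of the summed TPM of the 3 TGF-beta receptors in low cells and 3.50% to 7.11% in high cells, against 68.3% to 77.8% in QSCs. Per *Tgfbr2* transcript there were 0.301, 0.127 and 0.161 *Tgfbr3* transcripts in low cells and 0.176, 0.0735 and 0.103 in high cells, against 7.75, 6.22 and 5.91 in QSCs. The ratio of *Tgfbr1* to *Tgfbr2* moved less, with 0.751 to 0.979 in low cells, 1.03 to 1.30 in high cells and 1.21 to 1.80 in QSCs.

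The activin and myostatin receptors differed from each other. *Acvr2b* (ENSMUSG00000061393, chromosome 9, 119231184 to 119264061, plus strand, GRCm39) had 73, 62 and 64 counts in low cells and 45, 61 and 49 counts in high cells, against 145, 83 and 104 counts in QSCs, whose libraries were shallower. In TPM it had 1.82, 1.64 and 1.60 in low cells, 1.13, 1.46 and 1.27 in high cells, and 4.26, 5.72 and 3.12 in QSCs. It fell by 2.13 ± 0.30 on the log2 scale in low cells (adjusted p = 0.000108, edgeR) and fell by 2.39 ± 0.30 in high cells (adjusted p = 4.76e-05). Every cultured library lay below every QSCs library.

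*Acvr2a* (ENSMUSG00000052155, chromosome 2, 48704121 to 48793281, plus strand, GRCm39) stayed within a narrow range, with 10.02, 10.1 and 11.8 TPM in low cells, 13.8, 11.97 and 13.6 TPM in high cells, and 10.9, 7.93 and 8.06 TPM in QSCs. Its log2 fold change against QSCs was -0.56 ± 0.17 in low cells (adjusted p = 0.0166, edgeR) and -0.12 ± 0.17 in high cells (adjusted p = 0.562). Without QSCs library 2 the value in low cells was -0.70 and was called (adjusted p = 0.00166). The ratio of *Acvr2a* to *Acvr2b* TPM was 5.52, 6.19 and 7.39 in low cells, 12.2, 8.19 and 10.7 in high cells, and 2.55, 1.38 and 2.58 in QSCs, so the groups did not overlap in it.

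In all, 5 of the 9 tested members were called in low cells against QSCs, 1 higher and 4 lower. Of all 12614 genes 49.1% were called in that comparison, 22.6% higher and 26.5% lower. In high cells against QSCs 6 members were called, 2 higher and 4 lower, against 51.1% of all genes, 24.6% higher and 26.4% lower. The share of members called was thus near that of all genes in both comparisons, and these comparisons share the QSCs libraries. The median log2 fold change of the members was -0.56 in low cells and -0.13 in high cells, beside -0.075 and -0.022 for all genes tested.

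**Figure D3:**
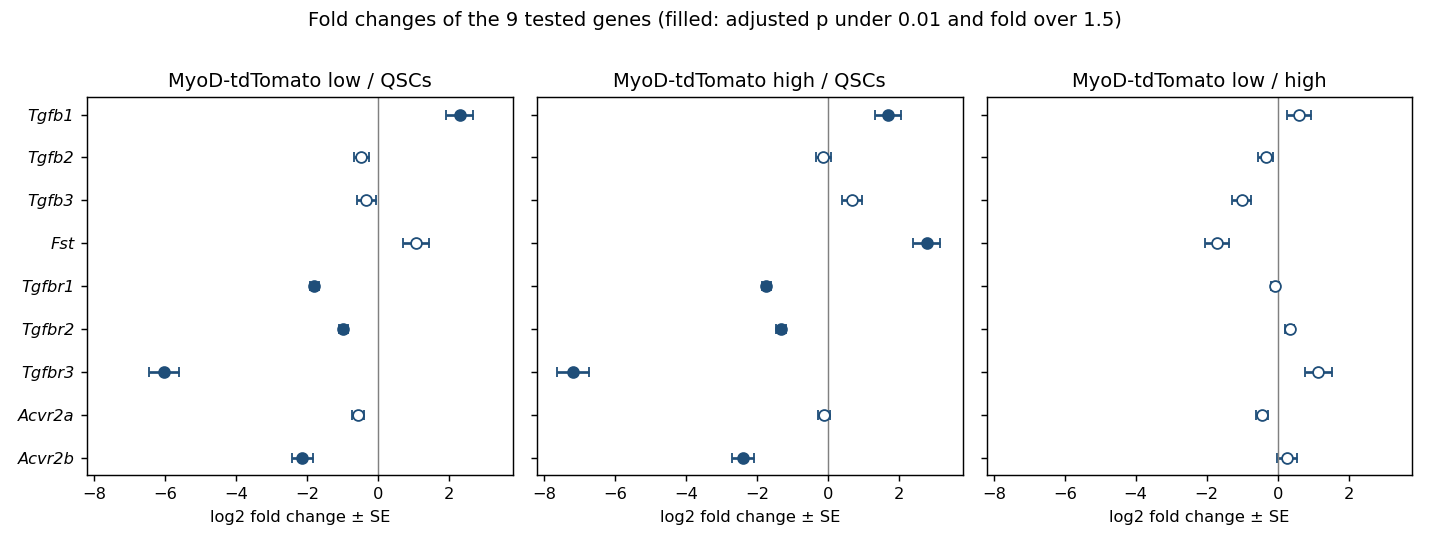
Log2 fold change with its SE (horizontal axes) of the 9 tested genes (vertical axis) in low cells against QSCs, high cells against QSCs and low against high cells. Filled points are called. The 4 receptor genes *Tgfbr1*, *Tgfbr2*, *Tgfbr3* and *Acvr2b* are filled and left of 0 in both comparisons with QSCs, *Tgfbr3* at -6.03 and -7.19, and no point is filled between low and high cells.

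TPM and counts place the middle of all genes differently. On log2(TPM + 1) the log2 fold changes of all genes had a median of 0.67 in low cells against QSCs, 0.59 in high cells against QSCs and 0.11 in low against high cells, and 79.2% and 76.2% of the calls against QSCs were higher in low and high cells, beside 46.0% and 48.2% on counts. *Tgfb2* and *Acvr2a* had positive values against QSCs in both cultured groups on TPM and negative ones on counts, *Tgfb3* did so in low cells, and *Tgfbr1* changed sign between low and high cells. All 6 of these values lay below the median of all genes on TPM, so relative to that median they were negative on both scales, and none was called on either. Values of *Tgfb1*, *Tgfbr3*, *Acvr2b* and *Fst* kept their direction in every comparison on both scales, as did *Tgfbr2*.

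The order of the members by TPM within each group gives a view that does not rest on a comparison of groups. In low cells it ran *Tgfb1* (92.7 ± 1.62 TPM), *Tgfb3* (45.02 ± 11.6), *Tgfb2* (27.8 ± 7.55), *Tgfbr2* (16.2 ± 0.832), *Tgfbr1* (14.4 ± 1.55), *Acvr2a* (10.7 ± 1.02), *Fst* (8.96 ± 2.10), *Tgfbr3* (3.23 ± 1.67), *Acvr2b* (1.68 ± 0.115) and *Mstn* (0.362 ± 0.314; SD, n = 3). Among neighbours in that order, *Tgfb3* and *Tgfb2*, *Tgfbr2* and *Tgfbr1*, and *Acvr2a* and *Fst* overlapped. In high cells *Tgfb3* (82.6 ± 20.8 TPM) and *Tgfb1* (55.9 ± 8.38) led and overlapped, followed by *Tgfb2* (32.1 ± 4.55) and *Fst* (26.8 ± 6.69), which overlapped too. *Tgfbr1* (13.7 ± 0.286 TPM), *Acvr2a* (13.1 ± 0.997) and *Tgfbr2* (11.7 ± 1.34) came next with each overlapping the next, and *Mstn* (3.91 ± 2.35), *Tgfbr3* (1.33 ± 0.455) and *Acvr2b* (1.29 ± 0.164) were last, the last pair overlapping. In QSCs *Tgfbr3* (124 ± 38.1 TPM) stood above all others, *Tgfb3* (32.0 ± 5.14), *Tgfbr1* (28.7 ± 3.93), *Tgfb2* (22.3 ± 2.28), *Tgfbr2* (18.5 ± 2.94), *Tgfb1* (10.3 ± 6.36) and *Acvr2a* (8.96 ± 1.67) followed, and *Acvr2b* (4.37 ± 1.30), *Fst* (2.56 ± 1.32) and *Mstn* (0.899 ± 1.36) were at the bottom. There the neighbours that did not overlap were *Tgfbr3* and *Tgfb3*, *Tgfbr1* and *Tgfb2*, and *Acvr2a* and *Acvr2b*. The ligand RNAs thus led in both cultured groups and a co-receptor led in QSCs.

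Low and high cells were both cultured for 5 days and were sorted by the reporter, so culture does not separate them. None of the 9 tested members was called by edgeR, beside 5.11% of all genes, 1.23% higher and 3.88% lower in low cells. At an unadjusted p under 0.05 *Tgfbr3* and *Tgfbr2* were higher and *Fst*, *Tgfb3* and *Acvr2a* lower in low cells. The share of all genes at that looser threshold was not computed, and the 5.11% does not stand for it. *Fst* was the nearest to the threshold, at 11.4 ± 2.86 CPM in low cells and 37.5 ± 10.02 CPM in high cells (SD, n = 3 each), with a log2 fold change of -1.71 ± 0.35 and an adjusted p of 0.01002 (edgeR). Without QSCs library 1, 2 or 3 it was called, at an adjusted p of 0.00972, 0.00914 or 0.0049. *Tgfb3* stood at 58.8 ± 16.8 CPM in low cells and 118 ± 33.2 CPM in high cells, a log2 fold change of -1.01 ± 0.27 (adjusted p = 0.0381, edgeR). *Tgfbr3* stood at 7.93 ± 4.4 CPM in low cells and 3.57 ± 1.32 CPM in high cells, a log2 fold change of 1.15 ± 0.39 (adjusted p = 0.0897, edgeR). *Tgfb1* had 86.6 ± 4.55 CPM in low cells and 57.1 ± 6.78 CPM in high cells, with no overlap, and a log2 fold change of 0.60 ± 0.35 (adjusted p = 0.357, edgeR). The error of *Tgfb1* in this fit includes the spread of QSCs, where its libraries ran from 5.54 to 26.1 CPM. The values of *Tgfbr2* (0.34, adjusted p = 0.136), *Acvr2a* (-0.44, adjusted p = 0.152), *Tgfb2* (-0.34, adjusted p = 0.37), *Acvr2b* (0.26, adjusted p = 0.694) and *Tgfbr1* (-0.07, adjusted p = 0.827) were smaller.

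Low and high libraries of the same number deviated together from their group means, and with the number as a block more members passed. In a blocked fit of all 9 libraries 2 members were called, beside 5.18% of all genes: *Tgfb3* was lower (-1.02, adjusted p = 0.00301) and *Tgfbr3* higher (1.10, adjusted p = 0.00402) in low cells, and *Fst* had -1.72 (adjusted p = 0.0132). That fit also blocks QSCs by number, although QSCs and cultured libraries of the same number did not deviate together. In a blocked fit of only the 6 cultured libraries, added after the data had been seen, 4 were called, beside 14.9% of all genes: *Fst* (-1.68, adjusted p = 3.81e-08) and *Tgfb3* (-0.98, adjusted p = 1.6e-07) were lower and *Tgfbr3* (1.12, adjusted p = 0.000224) and *Tgfb1* (0.63, adjusted p = 0.000129) higher in low cells. DESeq2, with no block, called 3 members (*Fst*, *Tgfb3* and *Tgfbr3*), beside 9.6% of all genes. The direction of these 4 genes was the same in all these fits, and whether they passed depended on how the spread was estimated. For single genes on TPM, the two-sided exact permutation test of 3 libraries against 3 cannot go below 0.1, and 23 of the 30 tests of 10 genes in 3 comparisons stood at that value (smallest adjusted p = 0.13).

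The other genes of the pathway were read from 7 lists of 123 genes, of which 96 could be tested. In low cells against QSCs 17 rose and 36 fell, in high cells against QSCs 18 rose and 44 fell, and in low against high cells 15 were higher and 7 lower. These last 22 calls became 11, 12 and 6 without low library 1, 2 and 3, and 8 and 6 without high library 1 and 3. In the same fits the calls over all genes went from 645 to 333, 279 and 111, and to 134 and 130. The median log2 fold changes of the 96 genes were -0.42, -0.66 and 0.18 in the 3 comparisons as ordered above, beside -0.075, -0.022 and -0.001 for all genes. Of all 12614 genes, 22.6% rose and 26.5% fell in low cells against QSCs, and 24.6% rose and 26.4% fell in high cells against QSCs. In low against high cells 1.23% of all genes were higher and 3.88% lower. The counts of each list below are to be read beside these shares. Up to 4 called genes of each list, those with the highest mean CPM, were named by rule. Other genes of the lists named below were chosen after their values had been seen.

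Among the other ligands, 3 of 10 tested genes rose and 4 fell in low cells against QSCs, and 3 rose and 5 fell in high cells. *Bmp4* and *Bmp6*, ligands of the BMP branch that signals through Smad1 and Smad5, fell furthest. *Bmp4* had 2.31 ± 0.374 CPM in low cells, 0.42 ± 0.182 CPM in high cells and 158 ± 19.1 CPM in QSCs, and *Bmp6* had 6.30 ± 3.40, 1.23 ± 0.659 and 216 ± 34.9 CPM (SD, n = 3 each). Both were also higher in low than in high cells, by 2.46 (adjusted p = 0.00131, edgeR) and 2.37 (adjusted p = 0.00726) on the log2 scale. Activin ligands split: *Inhba*, the activin A subunit, was higher in low than in high cells (1.81, adjusted p = 0.00591) while *Inha*, the subunit that turns an activin into an inhibin, was lower (-2.42, adjusted p = 0.00373). Against QSCs *Inhba* fell in both, with -1.93 in low cells (adjusted p = 0.000317, edgeR) and -3.74 in high cells (adjusted p = 4.66e-06). *Inha* rose against QSCs in high cells (3.58, adjusted p = 3.73e-05) and was not called in low cells (1.15, adjusted p = 0.0332). *Inhbb*, the activin B subunit, had 53.9 ± 10.9 CPM in low cells, 32.5 ± 7.31 CPM in high cells and 54.8 ± 7.22 CPM in QSCs, and fell in high cells. *Gdf6*, another BMP ligand, rose against QSCs in both, to 24.6 ± 12.3 CPM in low cells and 45.1 ± 14.97 CPM in high cells, against 6.002 ± 1.49 CPM in QSCs.

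Among the other receptors and co-receptors, 0 of 10 tested genes rose and 6 fell in low cells against QSCs, and 1 rose and 6 fell in high cells. The 6 that fell were *Acvr1b*, *Acvrl1*, *Bmpr2*, *Eng*, *Rgma* and *Rgmb* in both comparisons. *Acvr1b* encodes ALK4, the type I receptor of activin and myostatin, and fell by 1.90 ± 0.22 on the log2 scale in low cells and fell by 1.91 ± 0.22 in high cells. *Bmpr2*, the type II BMP receptor, stood at 77.2 ± 11.2 CPM in low cells, 98.2 ± 4.44 CPM in high cells and 190 ± 22.7 CPM in QSCs. *Rgmb*, a BMP co-receptor, had 27.6 ± 3.86, 43.3 ± 2.77 and 83.8 ± 11.2 CPM in low cells, high cells and QSCs. *Acvrl1* and *Eng* are known from endothelial cells, and *Eng* had 38.9 ± 2.27, 20.1 ± 1.61 and 70.5 ± 22.7 CPM in the same order. The gene that rose was *Hjv*, the BMP co-receptor hemojuvelin, with 16.6 ± 9.37 CPM in low cells, 105 ± 42.3 CPM in high cells and 5.6 ± 2.23 CPM in QSCs, and it was lower in low than in high cells (-2.66, adjusted p = 0.00414, edgeR).

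Proteins that hold TGF-beta latent or release it moved in both directions, with 5 of 16 tested genes higher and 4 lower in low cells against QSCs, and 3 higher and 6 lower in high cells. Within the latent TGF-beta binding proteins, *Ltbp4* fell to 44.5 ± 4.49 CPM in low cells and 29.2 ± 1.72 CPM in high cells, against 1319 ± 374 CPM in QSCs. *Ltbp1* stood at 294 ± 25.8 CPM in low cells and 281 ± 14.97 CPM in high cells, against 190 ± 32.1 CPM in QSCs, and was called in low cells. *Ltbp2*, which does not bind latent TGF-beta itself, rose by 4.26 ± 0.28 in low cells and 3.87 ± 0.28 in high cells on the log2 scale. *Thbs1*, thrombospondin 1, an activator of latent TGF-beta, stood at 653 ± 59.8 CPM in low cells and 587 ± 21.8 CPM in high cells, against 322 ± 21.7 CPM in QSCs, and rose in both. *Fbn1*, a fibrillin on which latent TGF-beta is stored, had 263 ± 31.2 CPM in low cells, 142 ± 7.53 CPM in high cells and 236 ± 40.6 CPM in QSCs, and was higher in low than in high cells (0.89, adjusted p = 0.00314, edgeR). Between low and high cells *Lrrc32*, which anchors latent TGF-beta at the cell surface, was higher in low cells (2.54, adjusted p = 0.00636, edgeR), and *Itgb6*, a subunit of an integrin that activates it, was lower (-2.29, adjusted p = 0.00345).

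Of 14 tested secreted antagonists besides *Fst*, 1 rose and 6 fell in each comparison with QSCs. The gene that rose was *Nog*, noggin, an antagonist of BMPs. *Chrdl2*, a relative of chordin, fell to 0.749 ± 0.346 CPM in low cells and 1.92 ± 0.625 CPM in high cells, against 229 ± 41.2 CPM in QSCs. *Twsg1*, which modulates BMPs together with chordin, had 73.8 ± 5.78, 68.3 ± 4.78 and 230 ± 15.2 CPM in low cells, high cells and QSCs. *Fstl1*, a secreted protein related to follistatin, stood at 107 ± 12.04 CPM in low cells, 51.7 ± 2.35 CPM in high cells and 244 ± 16.1 CPM in QSCs, an order that differs from that of *Fst*. Between low and high cells *Fstl1* was higher (1.05, adjusted p = 0.00131, edgeR) and *Chrd*, chordin, lower in low cells (-2.15, adjusted p = 0.00439).

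All 8 SMAD genes could be tested. *Smad3*, an effector of TGF-beta, activin and myostatin, fell to 18.4 ± 2.45 CPM in low cells and 33.4 ± 7.36 CPM in high cells, against 120 ± 11.5 CPM in QSCs, and was lower in low than in high cells (-0.86, adjusted p = 0.0097, edgeR). *Smad6*, an inhibitory SMAD that acts mainly on the BMP branch, rose to 59.0 ± 2.15 CPM in low cells and 47.7 ± 4.58 CPM in high cells, against 8.47 ± 0.738 CPM in QSCs. *Smad7*, the inhibitory SMAD that acts on TGF-beta receptors, was called in low cells only, at 70.4 ± 4.98 CPM, with 47.9 ± 8.12 CPM in high cells and 39.8 ± 6.79 CPM in QSCs, and the difference between low and high cells was not called (0.56, adjusted p = 0.0534, edgeR). *Smad1*, an effector of the BMP branch, fell in both.

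Of 18 intracellular regulators 2 rose and 6 fell in low cells against QSCs, 3 rose and 6 fell in high cells, and none was called between low and high cells. The 6 that fell were *Bambi*, *Nedd4l*, *Pmepa1*, *Skil*, *Tgif1* and *Zfyve9* in both comparisons. *Pmepa1*, *Skil* and *Tgif1* restrain SMAD signalling, and *Pmepa1* and *Skil* are known to be induced by it. *Tgif1*, a repressor that binds SMADs, fell to 45.2 ± 5.34 CPM in low cells and 42.1 ± 2.75 CPM in high cells, against 493 ± 79.0 CPM in QSCs. *Skil* had 95.9 ± 11.3, 132 ± 6.83 and 469 ± 79.0 CPM in low cells, high cells and QSCs. *Fkbp1a*, which binds the type I receptor, was among those that rose, with 319 ± 9.99 CPM in low cells and 310 ± 12.1 CPM in high cells, against 192 ± 26.05 CPM in QSCs.

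The 20 genes listed as induced by TGF-beta were all tested, and they are known to answer to other signals too. In low cells 4 rose and 8 fell against QSCs, and in high cells 6 rose and 13 fell. *Junb*, also an immediate early gene that cell isolation can induce, stood at 147 ± 16.4 CPM in low cells and 187 ± 7.89 CPM in high cells, against 2926 ± 546 CPM in QSCs. In low against high cells 7 of the 20 were higher and 2 lower, beside 1.23% higher and 3.88% lower of all genes. Their median log2 fold change was 0.74, beside -0.001 for all genes. Of the markers of other cells, 6 of 10 endothelial, 3 of 10 macrophage and myeloid and 1 of 6 fibroblast genes tested were also higher in low than in high cells. None in these marker lists was lower, and the fibroblast gene was *Col1a1*. Of the pericyte and smooth muscle markers 2 of 7 were higher and 2 lower. Of the Schwann cell markers 1 of 5 was higher and 2 lower, and of 4 tenocyte markers none was called. The part of such cells in the genes induced by TGF-beta was not tested. Among the 7 induced genes that were higher were *Col1a1* (3.03), *Postn* (2.42), *Col1a2* (2.07), *Ccn2* (1.13), *Fn1* (1.10) and *Mmp2* (0.90), genes of matrix or its turnover, whose adjusted p ran from 0.00131 to 0.00896 (edgeR). *Col1a1* had 29.2 ± 9.55 CPM in low cells, 3.58 ± 1.20 CPM in high cells and 290 ± 21.7 CPM in QSCs, and it is a fibroblast marker as well. The 2 induced genes that were lower were *Cdkn1a* (-1.63), the cell cycle inhibitor p21, and *Acta2* (-1.76), smooth muscle actin, both also known to rise in differentiating muscle cells. *Acta2* stood at 515 ± 231 CPM in low cells, 1743 ± 562 CPM in high cells and 408 ± 41.9 CPM in QSCs. *Col3a1*, a collagen, had 549 ± 89.2, 372 ± 30.3 and 661 ± 31.6 CPM in low cells, high cells and QSCs, and its difference between low and high cells was not called (0.56, adjusted p = 0.0168, edgeR). The 10 markers of committed myoblasts, all of them lower in low than in high cells, summed to 1351 to 3212 CPM in low cells and 10570 to 20270 CPM in high cells. Their part in the results of *Acta2*, *Cdkn1a*, *Fst* and *Tgfb3* was not tested.

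**Figure D4:**
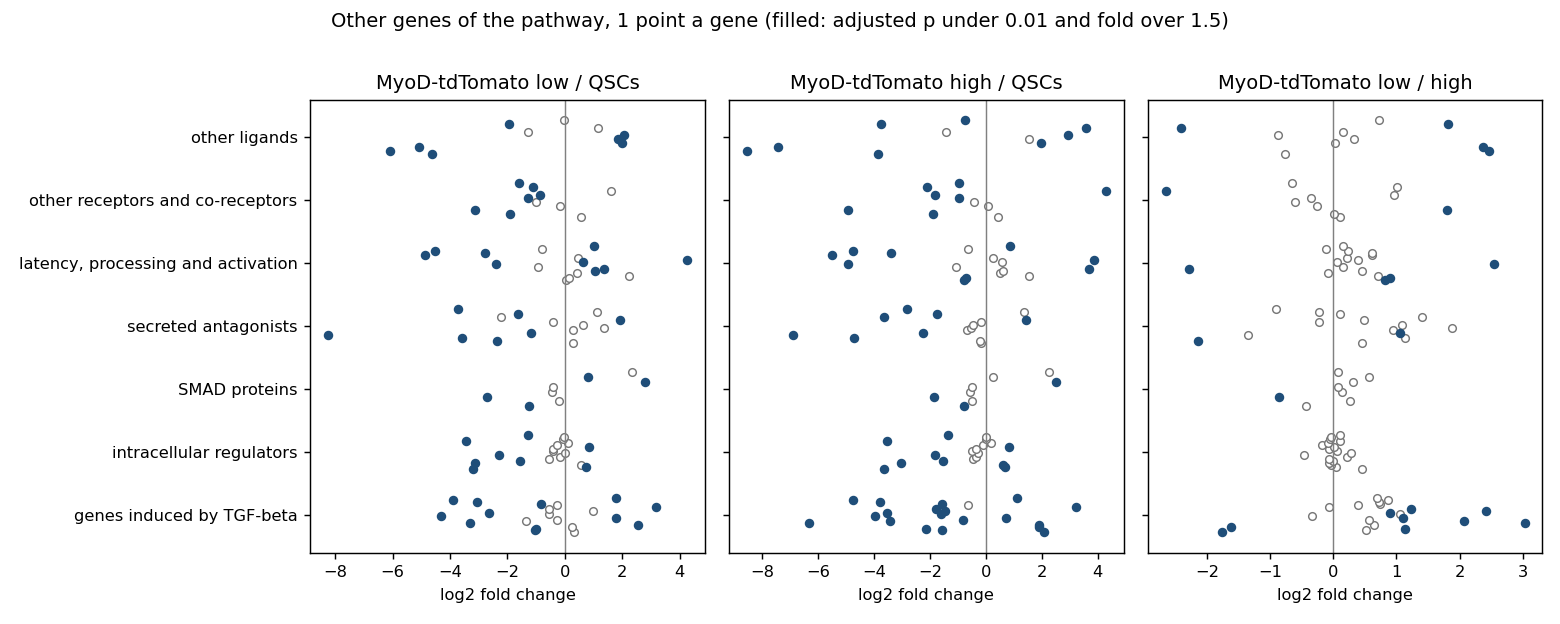
Log2 fold change (horizontal axes) of the 96 tested pathway genes outside the 10 members, by list (vertical axis), in low cells against QSCs, high cells against QSCs and low against high cells. Each point is a gene and filled points are called. Among the 20 genes induced by TGF-beta 13 are filled and left of 0 in high cells against QSCs, and 7 are filled and right of 0 in low against high cells. Of all genes tested, 26.4% were called lower in high cells against QSCs and 1.23% higher in low against high cells.

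The genes whose log2 CPM followed that of a member most closely over the 9 libraries were found by Pearson correlation among 9293 genes of at least 10 CPM on average, as a description, since all 9 libraries share the split between culture and QSCs. For *Tgfbr3* they were *Osmr*, a receptor of oncostatin M (r = 0.999), *Gab1*, an adaptor of receptor kinases (r = 0.998), and *Prelp*, a matrix proteoglycan (r = 0.998). *Osmr* had 8.43 CPM in low cells, 3.55 CPM in high cells and 321 CPM in QSCs, close in shape to *Tgfbr3*. For *Tgfb3* they were *Mknk2*, a kinase of the translation factor eIF4E (r = 0.98), *Porcn*, an enzyme that modifies Wnt ligands (r = 0.975), and *Derl1*, a protein of the endoplasmic reticulum (r = 0.975). For *Fst* they were *Ccny* (r = 0.992), *C1galt1c1* (r = 0.989) and *Mboat2* (r = 0.988). *Mboat2* had 17.7 CPM in low cells, 51.0 CPM in high cells and 10.2 CPM in QSCs.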

How the data were processed

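RNA sequencing of 9 libraries was used, 3 of each group, grouped by the sample labels. The authors made the libraries from poly(A) RNA, read 36 bases from both ends, and mapped and counted them against GRCm39 with CLC Genomics Workbench 20.0.3, its settings left at their defaults. Neither the version of the annotation nor the strand setting is given in the sources used here, so reads of overlapping antisense genes cannot be told apart. The deposited raw counts per gene are whole numbers with no normalization, and the deposited TPM were computed by the authors within each library and sum to 1000000. A further 18 per-sample columns, and 24 columns of fold changes and p-values from the authors' own comparisons, were not used.

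As in the study, a gene with no count in some library was removed, which left 12614 of 25655. All 9 libraries entered a single quasi-likelihood fit of the counts (edgeR 4.0.16, R 4.3.3), robust, scaled by TMM and with a coefficient for each group. Each comparison had its own Benjamini-Hochberg adjustment. Calls needed both an adjusted p below 0.01 and a change of over 1.5 times. The SE of a log2 fold change was derived from its F statistic. For TPM the test was an exact, two-sided permutation of the libraries. The members and lists were chosen with earlier results of these data known. Genes of the lists were named by rule as up to 4 called genes of the highest mean CPM, and others after their values were seen. The genes most like a member were found for the ligand, the receptor and the antagonist of the highest mean TPM, as the 3 highest Pearson correlations of log2 CPM (prior count 2), with predicted genes and pseudogenes left out.

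The check of pairing used deviations from the group means. Low and high libraries of the same number correlated at 0.441, 0.428 and 0.178, and same-numbered QSCs and cultured libraries at -0.0457 to 0.0131. The numbers were therefore taken to pair low with high libraries only. The alternatives were no filter or filterByExpr, RLE scaling, a fit of only the groups compared, DESeq2 1.42.0, limma 3.58.1 on log2(TPM + 1) and log2(TPM + 0.1), an adjusted p of 0.05 with no fold change, the replicate block, subtraction of the background seen in chemosensory receptor genes, and leaving out each library in turn. Total counts ranged from 7514633 to 26782872, and intervals and floors cover counting error only.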

Additional observations from a re-analysis of the deposited data

How the results depend on the processing

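Of the members, 5 to 6 were called in low cells against QSCs and 6 in high cells against QSCs whichever library was left out, and 0 to 1 in low against high cells. RLE scaling, filterByExpr and subtraction of the receptor gene background changed the call of no tested member. In low against high cells, where the fit reported called 0 members, there was 1 with no filter (*Fst*), 2 with only the 2 groups compared (*Fst* and *Tgfb1*), 2 at an adjusted p under 0.05 with no fold change threshold (*Fst* and *Tgfb3*) and 3 with DESeq2. Over all genes the fit reported called 645 of 12614, no filter 554 of 20519, the 2 groups alone 1026 of 13502 and DESeq2 1211 of 12614. For the adjusted p under 0.05 the share of all genes was not computed. The replicate block gave 2 members with all 9 libraries and 4 with only the 2 groups compared, a fit added after the data had been seen, in which 40 pathway genes were called in place of 22. With all 9 libraries the block also called *Tgfb3* in high cells against QSCs (0.68, adjusted p = 0.00292, edgeR) and changed no other call of a member. That call rests on pairing QSCs with cultured libraries by number, which the check of pairing did not bear out. Pathway genes called ran from 47 to 59 in low cells against QSCs, 58 to 66 in high cells against QSCs and 6 to 22 in low against high cells over the left-out libraries. In low against high cells the calls over all genes ran from 111 to 881 in those fits, beside 645 in the fit reported. Signs turned for small values only. On log2(TPM + 1) and log2(TPM + 0.1) these were, in low cells against QSCs, *Tgfb2* (0.27 and 0.28), *Tgfb3* (0.46 and 0.47) and *Acvr2a* (0.24 and 0.26), in high cells against QSCs *Tgfb2* (0.50 and 0.52) and *Acvr2a* (0.51 and 0.56), and in low against high cells *Tgfbr1* (0.06 and 0.07). In high cells against QSCs, *Tgfb2* was 0.03 and *Acvr2a* 0.04 with no filter, *Tgfb2* ran from -0.22 to 0.01 and *Acvr2a* from -0.26 to 0.02 over the left-out libraries. None of these was called, and the cause was not tested. Depth limits *Mstn* most, which had 0 to 199 counts in a library.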
